A study of Homo sapiens with 4 samples.

Results

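The RNAs described here are the H/ACA small nucleolar RNAs (snoRNAs) and the small Cajal body-specific RNAs (scaRNAs) of MDA-MB-231 cells, a triple-negative breast cancer line. They were chosen by symbol and by their measured count level, as the genes whose symbol starts with SNORA or SCARNA and whose mean over the 4 libraries was at least 10 counts. This gave 83 members of 210 such symbols, 68 SNORA and 15 SCARNA, among 16599 genes that reached the same mean and 35993 genes in the table. Of the other symbols, 31 had no count in any library and 96 had a mean above 0 and under 10. The rule used the mean level over all 4 libraries, so levels are given as a description. The difference between conditions was no criterion, but the mean includes the kahweol libraries, and 7 members averaged under 10 counts in the untreated ones. The set was also chosen with earlier results of these data known. Just over the limit were SNORA29 and SNORA84, with a mean of 10.75 counts each, and SNORA80E with 11, and just under it SNORA69, SNORA31 and SNORA75 with 9.25 each.

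The series comprised 4 total RNA libraries, depleted of rRNA, stranded and sequenced as paired reads. Each came from 1 condition: cells with an siRNA against CTGF (siCTGF) and kahweol, siCTGF cells without kahweol, cells with a control siRNA (siControl) and kahweol, and siControl cells without it. Kahweol, a diterpene of coffee, was given at 50 µM for 48 h in serum-free medium. All 4 conditions share the transfection, and 1 siRNA sequence stood for each arm. Kahweol was dissolved in DMSO, and no vehicle is named for the untreated cells. With 1 library per condition there is no replicate, so a value for a pair of libraries compares those libraries only, and intervals on it cover counting error only.

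H/ACA snoRNAs fold into hairpins followed by an H box and an ACA box, and guide the conversion of uridine to pseudouridine in ribosomal RNA. They work in a particle with the synthase dyskerin (DKC1) and its partners NOP10, NHP2 and GAR1. ScaRNAs guide the modification of the spliceosomal snRNAs in the Cajal body, a nuclear compartment, and some of them carry the C and D boxes of the methylation guides instead of, or beside, the H/ACA elements. In human cells most of these RNAs are not transcribed on their own but are cut out of the introns of host genes, many of which code for ribosomal proteins and translation factors.

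The members shown here are those the results turn on, with the letters of the GENCODE 29 transcript (GRCh38) matched by gene ID and the position in the table (GRCh37). Capitals mark an ACA lying 3 bases before the 3′ end. In the scaRNAs they also mark TGATGA, the C box, and CTGA, the D box, within the last 20 bases. Other elements were not marked. SNORA73A (chr1:28833877-28834083, plus strand) and SNORA73B (chr1:28835070-28835274, plus strand), also called U17, lie in the same locus. SNORA10 (chr16:2012335-2012467, minus strand) and SNORA64 (chr16:2012974-2013107, minus strand) lie within RPS2. SNORA21 (chr17:37009116-37009248, minus strand) lies within RPL23, SNORA67 (chr17:7481273-7481409, plus strand) within EIF4A1 and SNORA80B (chr2:10586840-10586975, minus strand) within ODC1. The scaRNAs shown are SCARNA13 (chr14:95999692-95999966, minus strand), which has this ACA, and SCARNA12 (chr12:7076500-7076769, minus strand) and the last 100 bases of SCARNA2 (chr1:109642815-109643234, plus strand), which do not have it.
SNORA73A: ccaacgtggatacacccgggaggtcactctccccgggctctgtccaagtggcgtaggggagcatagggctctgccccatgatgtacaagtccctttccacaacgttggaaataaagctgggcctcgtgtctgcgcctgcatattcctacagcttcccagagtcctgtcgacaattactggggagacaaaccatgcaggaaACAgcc
SNORA73B: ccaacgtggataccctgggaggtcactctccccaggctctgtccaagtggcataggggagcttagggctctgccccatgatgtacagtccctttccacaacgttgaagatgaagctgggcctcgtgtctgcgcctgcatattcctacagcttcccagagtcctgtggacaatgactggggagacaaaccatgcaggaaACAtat
SNORA10: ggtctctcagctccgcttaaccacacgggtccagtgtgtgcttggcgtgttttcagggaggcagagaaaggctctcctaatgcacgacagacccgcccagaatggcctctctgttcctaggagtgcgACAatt
SNORA64: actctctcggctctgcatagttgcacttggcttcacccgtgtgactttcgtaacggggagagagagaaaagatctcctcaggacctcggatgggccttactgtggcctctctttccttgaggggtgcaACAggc
SNORA21: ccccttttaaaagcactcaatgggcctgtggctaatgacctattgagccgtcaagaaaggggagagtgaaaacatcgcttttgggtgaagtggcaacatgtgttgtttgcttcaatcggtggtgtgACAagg
SNORA67: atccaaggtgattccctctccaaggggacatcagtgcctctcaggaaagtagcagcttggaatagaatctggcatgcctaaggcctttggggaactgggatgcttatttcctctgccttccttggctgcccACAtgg
SNORA80B: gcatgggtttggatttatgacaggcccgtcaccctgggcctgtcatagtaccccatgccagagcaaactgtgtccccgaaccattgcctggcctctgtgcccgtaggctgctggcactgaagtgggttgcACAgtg
SCARNA13: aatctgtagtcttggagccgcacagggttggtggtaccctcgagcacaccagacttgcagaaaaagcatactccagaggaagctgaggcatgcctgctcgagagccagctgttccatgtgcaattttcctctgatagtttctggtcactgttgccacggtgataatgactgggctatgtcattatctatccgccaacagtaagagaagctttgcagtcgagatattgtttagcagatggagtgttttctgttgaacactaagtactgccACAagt
SCARNA12: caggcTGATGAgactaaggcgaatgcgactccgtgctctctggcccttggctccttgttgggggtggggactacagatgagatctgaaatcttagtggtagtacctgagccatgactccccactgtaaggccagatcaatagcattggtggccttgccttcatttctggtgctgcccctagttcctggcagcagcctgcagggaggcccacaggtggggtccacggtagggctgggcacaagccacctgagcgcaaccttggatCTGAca
SCARNA2: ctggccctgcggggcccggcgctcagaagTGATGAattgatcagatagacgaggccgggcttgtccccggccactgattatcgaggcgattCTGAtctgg

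The motifs were counted under each name. Of the 68 SNORA members, 63 were matched to a sequence, and 45 of them had ACA at 3 bases before the end, as did 4 of the 11 matched SCARNA members, SCARNA13, SCARNA16, SCARNA21 and SCARNA22. Of the 79 matched C/D snoRNAs (SNORD), 3 had it, and 29.4% of the 955 snoRNA transcripts of GENCODE 29 did. TGATGA was found in 0 of the 63 SNORA sequences, in 8 of the 11 SCARNA sequences and in 57 of the 79 SNORD sequences. The 7 SCARNA sequences without the terminal ACA were SCARNA2, SCARNA5, SCARNA6, SCARNA7, SCARNA9, SCARNA10 and SCARNA12, and 18 of the SNORA sequences lacked it as well. Both motifs were searched as these letters on the transcript strand, and the absence of a match says only that they are not at that place in the annotated sequence.

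Before the members, the targeted gene was examined. CTGF (CCN2 in the table) had 31.8 CPM (counts scaled to a common library size with the trimmed mean of M-values, TMM) in siCTGF cells with kahweol, against 186 CPM in siControl cells with kahweol, and 63.6 CPM in untreated siCTGF cells, against 159 CPM in untreated siControl cells. The log2 fold changes were -2.55 and -1.32, so both siCTGF libraries lay under both siControl libraries, although over all 4 libraries edgeR's quasi-likelihood test gave a Benjamini-Hochberg adjusted p of 0.055. Of the 18 marker genes examined, the mesenchymal gene VIM lay between 2549 and 3255 CPM and the keratin gene KRT8 between 300.1 and 363 CPM, while CDH2, also mesenchymal, stayed at or under 0.368 CPM. Of the receptors that define the triple-negative class, ESR1 and PGR stayed at or under 0.592 CPM and ERBB2 lay between 52.6 and 74.8 CPM. The leukocyte gene PTPRC and the fibroblast genes DCN and LUM stayed at or under 0.139 CPM, whereas CD68, a macrophage marker, lay between 40.6 and 60.6 CPM. The other fibroblast genes were higher, COL1A1 between 3.23 and 5.21 CPM and PDGFRB between 9.38 and 12.4 CPM. Total counts ran between 44781516 and 59129784. The siCTGF library with kahweol stood apart in its mitochondrial rRNA, which took 6.01% of its counts, against 3.11% to 4.33% in the other libraries.

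The members took a larger share of all counts with kahweol in both siRNA backgrounds. In siCTGF cells the 83 members held 0.0603% of counts with kahweol (28493 counts), against 0.0349% without (18114 counts), a ratio of 1.72 (95% counting interval 1.68 to 1.77, exact Clopper-Pearson, taking 2 reads as 1 fragment). In siControl cells they held 0.0485% with kahweol (21738 counts) and 0.0372% without (21980 counts), a ratio of 1.31 (1.27 to 1.34). The shares of the SNORA members had ratios of 1.73 in siCTGF cells and 1.48 in siControl cells, and those of the SCARNA members 1.72 and 1.25. Most of the counts were scaRNA counts, between 73.4% and 76.4% in the 4 libraries. SCARNA2 alone supplied between 37.4% and 43.1%, and without it the ratios were 1.60 and 1.40. In bulk RNA a change in the number of cells that hold an RNA and a change in its amount per cell cannot be told apart.

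**Figure D1:**
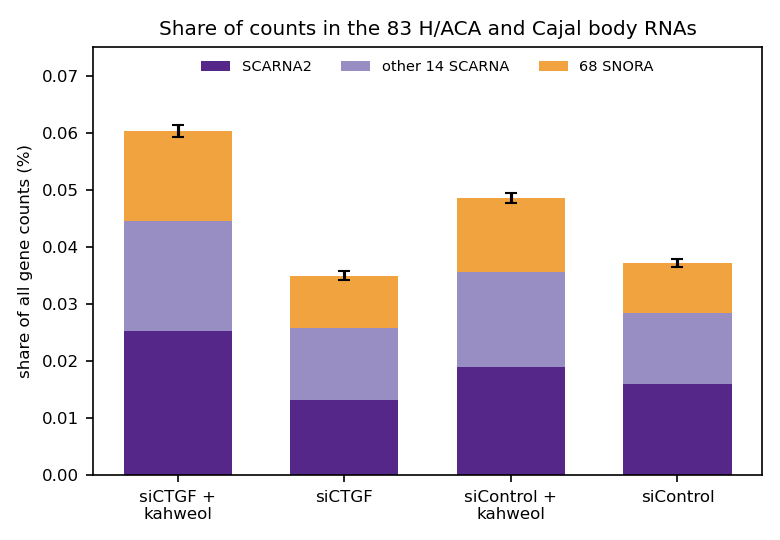
Share of all gene counts (%, bars from 0) held by SCARNA2, the other 14 SCARNA and the 68 SNORA members in each of the 4 libraries, with 95% exact counting intervals on the total. The bar is taller with kahweol in both backgrounds, 0.0603% against 0.0349% in siCTGF cells and 0.0485% against 0.0372% in siControl cells.

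Other short RNAs moved with them. The 107 SNORD genes took 0.645% of counts with kahweol, against 0.426% without it, in siCTGF cells, and 0.574% against 0.489% in siControl cells. SNORD3A, the U3 snoRNA, held between 89.1% and 91.7% of those counts, and the other 106 had 0.0653% against 0.0431% in siCTGF cells and 0.0624% against 0.0408% in siControl cells, ratios of 1.52 and 1.53. The RNAs of the signal recognition particle and of 7SK (RN7SL1, RN7SL2 and RN7SK) took 2.40% against 1.73% in siCTGF cells and 2.29% against 1.46% in siControl cells. The 127 SNORA and SCARNA genes under the count limit, which the rule left out, had share ratios of 1.62 and 1.40. Mitochondrial rRNA and the 10 most abundant genes together also took more with kahweol, 12.9% against 8.25% in siCTGF cells and 10.8% against 8.54% in siControl cells for the top 10. The recovery of RNAs this short, with lengths between 86 and 421 bases and a median of 136, was not measured, and its part in the result was not tested.

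Gene by gene, the shift ran through most of the set. The median log2 fold change with kahweol was 1.00 in siCTGF cells and 0.61 in siControl cells, against -0.00 and -0.02 over all 16599 genes. A fold over 1.3 was reached by 72 of the 83 members in siCTGF cells (background 28.4% of all genes) and by 58 in siControl cells (background 28.1%). A fold under 0.7 was found for 1 member in each pair (backgrounds 24.2% and 26.3%), SNORA84 both times. Both kahweol libraries lay above both untreated libraries for 67 members (36% of all genes) and below them for 2 (37.1%), SNORA104 and SNORA84. Both pairs passed 1.3 for 54 members, against 20.7% of all genes. These shares lie well above the background for higher values and well below it for lower ones. The medians for members with a mean of 10 to 100 counts (1.03 in siCTGF cells and 0.69 in siControl cells, 60 members) and of at least 100 counts (0.79 and 0.56, 23 members) were on the same side. With total-count scaling the median of all genes moved by -0.15 and -0.13, and the members' medians were 0.86 and 0.48.

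**Figure D2:**
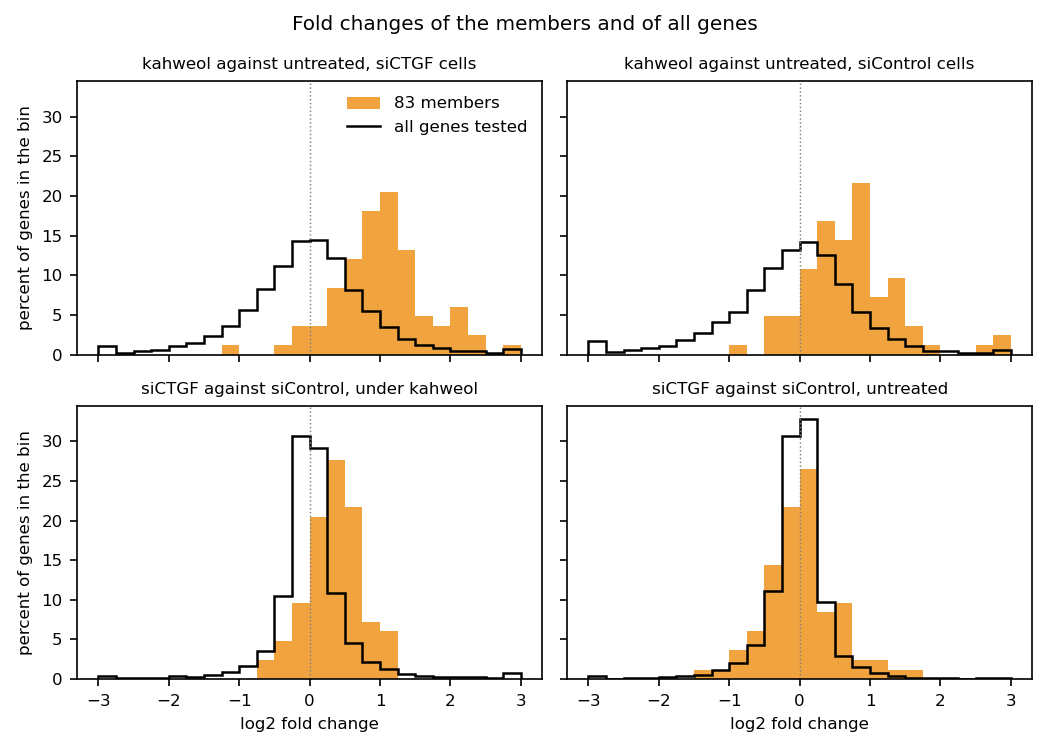
Percent of the 83 members (filled) and of all 16599 genes (line) in bins of log2 fold change, for kahweol against untreated (top) and siCTGF against siControl (bottom), with values beyond the axis placed in the end bins. With kahweol the members lie right of all genes in both backgrounds (medians 1.00 and 0.61), and for siCTGF they do so under kahweol (median 0.36) and not in untreated cells (median 0.02).

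The test over all 4 libraries, which takes the 2 pairs as repeats of the kahweol difference and leaves 1 residual degree of freedom, called fewer of them. Of the 83 members, 22 rose with kahweol at an adjusted p under 0.05 in edgeR's quasi-likelihood test (Benjamini-Hochberg over all genes), which is 26.5% against a background of 22.9% and so near it. None fell (background 23.6%), and at an unadjusted p under 0.05 there were 31 higher (26.2% of all genes) and 0 lower (27.3%). Among the 40 members with a mean of at least 50 counts, 20 rose, 50% against a background of 26.9%, and 0 fell (background 27.4%). Of the 83, 7 averaged under 10 counts in the untreated libraries. Without these 7, a choice made after seeing the data, 21 of 76 rose (27.6%), and the medians of the 2 pairs were 0.97 in siCTGF cells and 0.60 in siControl cells. DESeq2 called 14, all among the 22, beside 3306 of all 16599 genes, and limma-voom 29, beside 3960 of them. The 13 called under every setting were SCARNA5, SCARNA7, SCARNA9L, SCARNA10, SCARNA12, SNORA4, SNORA10, SNORA21, SNORA48, SNORA63, SNORA67, SNORA73A and SNORA73B. They are listed as a description, since 1 setting tested only the 40 members with at least 50 counts. The share of all genes called under every setting was not taken.

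SNORA73A and SNORA73B, which act in the cleavage of the rRNA precursor rather than as modification guides, were the most abundant SNORA members with a call. SNORA73A had 33.5 CPM with kahweol against 16.2 CPM without in siCTGF cells, and 28.4 against 14.4 CPM in siControl cells. Its fitted log2 fold change was 1.02 (SE 0.10, adjusted p = 0.000237, edgeR's quasi-likelihood test, Benjamini-Hochberg adjusted). SNORA73B had 13.2 against 7.67 CPM in siCTGF cells and 11.0 against 5.25 CPM in siControl cells, with a fitted value of 0.92 (SE 0.16, adjusted p = 0.00287, same test). Their sequences share 192 of 206 aligned bases (93.2%), so the split of reads between the copies is uncertain, but both kahweol libraries lay above both untreated libraries for each.

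Of the 9 members within genes for translation factors, 6 rose (66.7%), and 7 of the 9 had at least 50 counts on average, a level at which 50% of all members rose. The difference from members in other hosts was not tested. SNORA67 and SNORA48 lie within EIF4A1, the RNA helicase of cap-dependent initiation. Both also lie within SENP3-EIF4A1, which had fewer counts and log2 fold changes of 3.32 in siCTGF cells and 2.59 in siControl cells. SNORA67 had 6.17 against 2.24 CPM in siCTGF cells and 4.31 against 1.60 CPM in siControl cells, with log2 fold changes of 1.45 and 1.41 that lie within each other's counting intervals (1.03 to 1.94 and 0.92 to 1.95). SNORA48 had 5.99 against 2.25 CPM and 3.80 against 1.92 CPM in the same order. Of the 4 members within EIF4A2, the paralogous helicase, SNORA63, SNORA4 and SNORA81 rose, with fitted log2 fold changes of 1.01 ± 0.26, 1.35 ± 0.35 and 1.21 ± 0.39 (SE). SNORA63B, the fourth, had 1.94 against 0.702 CPM in siCTGF cells and 1.48 against 0.752 CPM in siControl cells, without a call (adjusted p = 0.056, edgeR's quasi-likelihood test, Benjamini-Hochberg adjusted).

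The 16 members within ribosomal protein genes had fewer counts, with a median of 47.6 counts on average, against 115 for those within translation factor genes. SNORA10 had 1.73 CPM (77 counts) against 0.388 CPM (21 counts) in siCTGF cells, and 1.97 CPM (85 counts) against 0.576 CPM (36 counts) in siControl cells. Its fitted log2 fold change of 1.95 (SE 0.46) was the largest within these hosts. Its neighbour SNORA64, also within RPS2, had 1.76 against 0.721 CPM and 1.69 against 0.656 CPM, a fitted value of 1.32 (SE 0.44). SNORA21 had 2.50 against 0.573 CPM in siCTGF cells and 1.81 against 0.576 CPM in siControl cells, and its groups lay far apart (fitted 1.88, SE 0.43). SNORA21B, which lies within RPL23 as well, had 1.67 against 0.813 CPM in siCTGF cells but 0.973 against 0.976 CPM in siControl cells, so its libraries overlapped. SNORA10, SNORA64 and SNORA21 were the 3 members called among the 16 (18.8%, against 22.9% of all genes).

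The member with the largest fitted value was SNORA80B. It lies within ODC1, the gene of the first enzyme of polyamine synthesis, and reached the count limit through its kahweol libraries, since its untreated libraries averaged 6 counts. It had 1.24 CPM (55 counts) against 0.148 CPM (8 counts) in siCTGF cells and 0.556 CPM (24 counts) against 0.0640 CPM (4 counts) in siControl cells. The fitted log2 fold change was 3.06 (SE 0.75), given as a description since the kahweol libraries carried the member over the limit. The counting interval in siControl cells ran from 0.95 to 6.32. SNORA14B, within TOMM20, the gene of a mitochondrial import receptor, had 33 against 7 counts in siCTGF cells and 31 against 13 in siControl cells (fitted 2.12, SE 0.73). SNORA103, within the noncoding gene GAS5, had 129 against 55 counts and 86 against 61 (fitted 1.27, SE 0.38), and SNORA94, within UQCRC1, a subunit gene of respiratory complex III, 231 against 147 and 241 against 230 (fitted 0.77, SE 0.25).

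SCARNA2 and SCARNA7 held the highest levels per length, although the median level of the SCARNA members, 12.9 TPM, was close to that of the SNORA members, 12.3 TPM. Mean TPM (counts scaled by transcript length and to a common total) over the 4 libraries were 803 for SCARNA2, 290.0 for SCARNA7, 200.2 for SCARNA12, 181 for SCARNA10 and 162 for SCARNA21, against a median of 12.4 TPM over all members, and SNORA73A, at 202 TPM, was the only SNORA above 100 TPM. Of the 15 SCARNA members, 7 rose (46.7%, against 22.9% of all genes). All 7 were among the 12 with at least 50 counts on average, a level at which 50% of all members and 26.9% of all genes rose. SCARNA7, a C/D scaRNA within KPNA4, had 71.3 against 41.2 CPM in siCTGF cells and 59.4 against 38.2 CPM in siControl cells (fitted 0.72, SE 0.10). SCARNA10, or U85, a composite RNA with both box types that guides modification of the U5 snRNA, had 40.8 against 25.6 CPM and 40.4 against 24.0 CPM (fitted 0.71, SE 0.09). The log2 fold changes of SCARNA10 in the 2 backgrounds, 0.67 and 0.75, lay within each other's counting intervals, while those of SCARNA7 had intervals that overlapped (0.68 to 0.90 in siCTGF cells and 0.52 to 0.75 in siControl cells). SCARNA12, also composite, had 37.9 against 24.1 CPM and 32.2 against 23.8 CPM (fitted 0.55, SE 0.10), and SCARNA9L, whose symbol marks it as like SCARNA9, 6.98 against 3.20 CPM and 6.86 against 3.47 CPM (fitted 1.05, SE 0.22).

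Other scaRNAs differed between the backgrounds. SCARNA2, a methylation guide for the U2 snRNA that is transcribed from its own promoter, had 268 against 125 CPM in siCTGF cells and 196 against 152 CPM in siControl cells. Its log2 fold change was 1.10 (1.04 to 1.16) in siCTGF cells and 0.37 (0.31 to 0.43) in siControl cells, so the counting intervals did not meet. The fitted value of 0.73 (SE 0.15, adjusted p = 0.00597, edgeR's quasi-likelihood test, Benjamini-Hochberg adjusted) was 0.37 without either siCTGF library and 1.10 without either siControl library, and DESeq2 did not call it. SCARNA21, an H/ACA scaRNA within CHD3, behaved likewise, with 0.91 (0.67 to 1.14) and 0.22 (-0.03 to 0.45), a fitted 0.56 (SE 0.19) and 0.22 without either siCTGF library. SCARNA5, a composite RNA within ATG16L1, went the other way, with 118 against 85 counts in siCTGF cells and 148 against 28 in siControl cells. Its fitted 1.78 (SE 0.55) was 2.93 without the untreated siCTGF library and 0.76 without the untreated siControl library. SCARNA13, an H/ACA scaRNA within SNHG10, had 17.3 against 11.5 CPM and 11.9 against 10.6 CPM without a call. SCARNA9, a methylation guide for U2 within CEP295, had 3.38 against 1.53 CPM in siCTGF cells and 2.04 against 2.10 CPM in siControl cells, and its libraries overlapped.

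**Figure D3:**
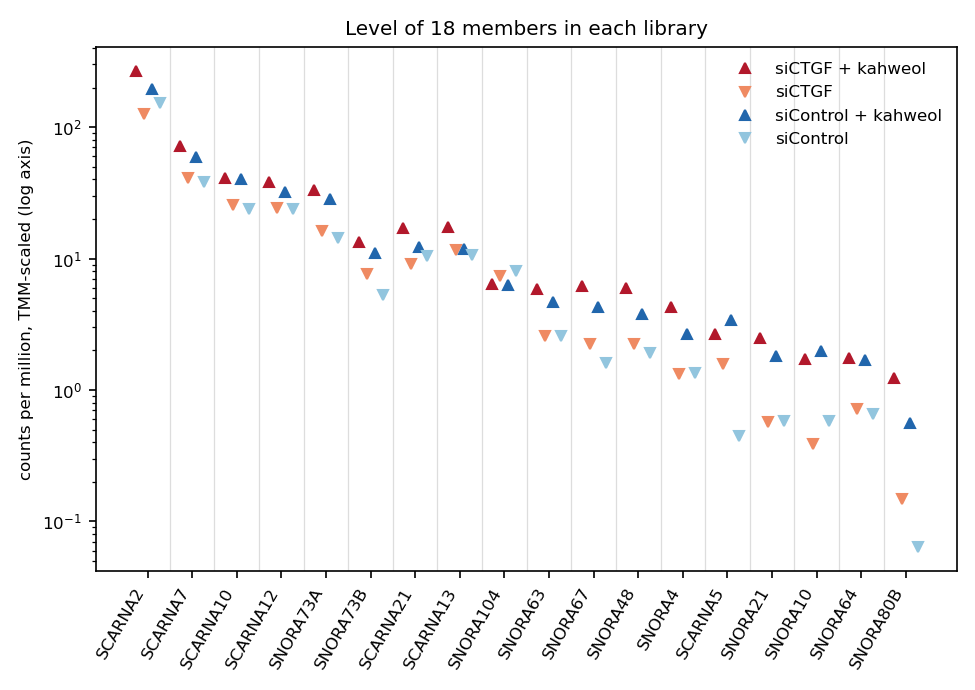
TMM-scaled CPM (log axis) of 18 members in the 4 libraries, with kahweol as upward and untreated as downward triangles. Both kahweol libraries lie above both untreated libraries for every member shown except SNORA104, for which they lie below (6.40 against 7.37 CPM and 6.30 against 8.04 CPM).

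A few members did not share the shift or shared it without a call. SNORA104, which has no same-strand host in the table, had 6.40 CPM with kahweol against 7.37 CPM without in siCTGF cells and 6.30 against 8.04 CPM in siControl cells (fitted -0.28, SE 0.18, not called). SNORA84, within IARS1, had 7 against 20 counts and 4 against 12 counts, at the count limit of the set (fitted -1.13, SE 0.87, not called). SNORA50C had 3.81 against 3.25 CPM in siCTGF cells and 2.22 against 2.80 CPM in siControl cells, and its libraries overlapped. SNORA40, the most abundant member within TAF1D, a subunit gene of the RNA polymerase I selectivity factor, had 5.86 against 4.57 CPM and 5.40 against 4.19 CPM, so both kahweol libraries lay above both untreated ones, by a log2 fold change of 0.36 in each pair, but it was not called (adjusted p = 0.219, edgeR's quasi-likelihood test, Benjamini-Hochberg adjusted).

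The same-strand hosts allowed the members to be set beside the genes that contain them. A host was found for 80 members, in 59 genes, and 34 members shared a host with another member. The hosts had medians of 0.24 in siCTGF cells and 0.29 in siControl cells, and 32 of them rose (54.2%, against 22.9% of all genes) and 6 fell (10.2%, against 23.6%) with kahweol. The member's log2 fold change lay above that of its host for 67 of the 80 in siCTGF cells and for 55 in siControl cells, and in both for 52. Where several genes contained a member, the one with the most counts was taken. SNORA67 and SNORA48 lay above EIF4A1 but below SENP3-EIF4A1 in both backgrounds. Members within SNHG3, SNHG4 and SNHG20, the other genes set aside in this way, lay above them in both. Across the 80 members, the log2 fold changes of member and host had a Pearson's r of 0.25 and 0.28 (Spearman's rho 0.27 and 0.10), given as a description over RNAs of the same libraries, some of which share a host.

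Members rose within hosts that rose, fell or did neither. Of the 50 members in hosts that rose, 12 rose (24%), near the 22.9% of all genes. Hosts without a call, among them SNHG22, which was under the count limit and not tested, held 24 members. Of these 6 rose (25%), also near that share. Among the 6 were SNORA73A and SNORA73B. Their locus holds RCC1, the gene of the exchange factor of Ran, with log2 fold changes of -0.09 and -0.23, and SNHG3, with 0.48 and 0.21. Hosts that fell contained 6 members, of which SCARNA10, SCARNA12 and SNORA94 rose (50%). The others, SCARNA22, SNORA77B and SNORA84, averaged only 39, 17.5 and 10.75 counts. NCAPD2, a condensin subunit gene and the host of SCARNA10, had a fitted log2 fold change of -0.48 (adjusted p = 0.00243, edgeR's quasi-likelihood test, Benjamini-Hochberg adjusted), against 0.71 for SCARNA10. PHB2, a prohibitin gene and the host of SCARNA12, had -0.35, and UQCRC1, the host of SNORA94, -0.26. SCARNA22, known as ACA11, lies within NSD2, which fell (-0.31). SCARNA22 had 0.676 CPM (30 counts) against 0.758 CPM (41 counts) in siCTGF cells. In siControl cells it had 1.02 CPM (44 counts) against 0.656 CPM (41 counts). Its log2 fold changes were -0.16 and 0.61, with counting intervals that included 0 (-1.20 to 0.91 and -0.27 to 1.62).

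The medians were also taken by kind of host, without a test of the differences between kinds. All 12 ribosomal protein hosts rose, with medians of 0.30 and 0.33, while their 16 members had medians of 1.25 in siCTGF cells and 0.60 in siControl cells. The 9 members within 5 translation factor genes had medians of 1.39 and 0.94, the hosts 0.38 and 0.43, and 6 of these members rose. For the 6 members within TAF1D the relation differed, since the host had 0.78 and 0.68 and the members medians of 0.68 and 0.21, with 1 call, SNORA8 (5.41 against 2.61 CPM and 3.91 against 2.30 CPM). The 13 members within noncoding hosts had medians of 0.88 and 0.93, the hosts 0.73 and 0.45, and the 36 within other protein-coding genes 0.97 and 0.60, the hosts 0.14 and 0.21. Whether reads from unspliced host RNA entered the members' counts was not tested.

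**Figure D4:**
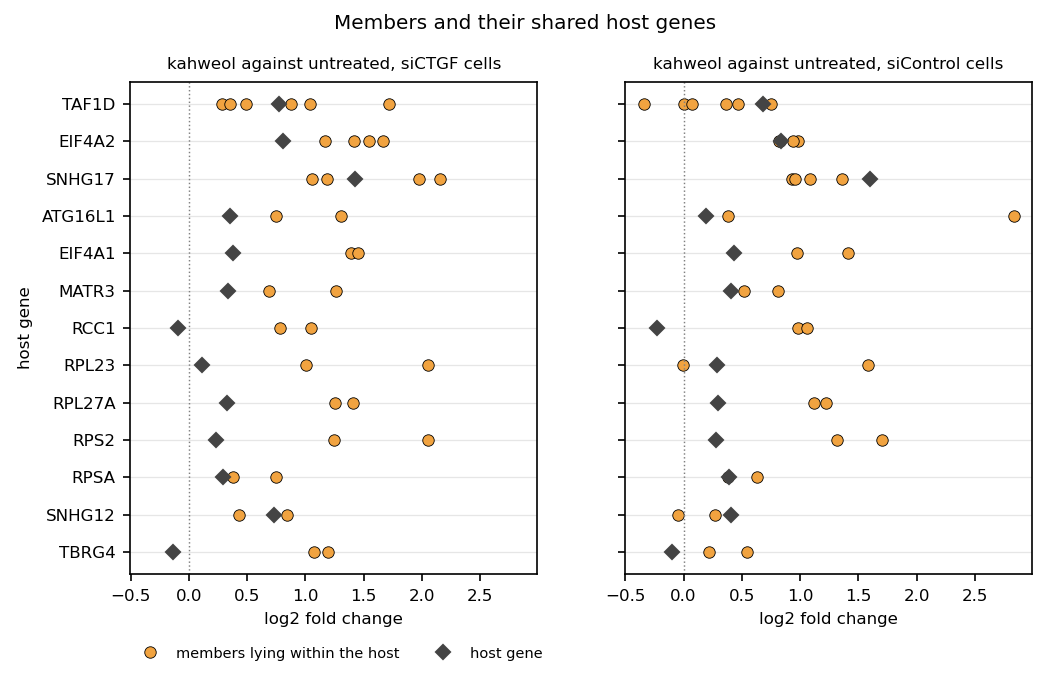
Log2 fold change with kahweol of the 13 host genes that contain more than 1 member (diamonds) and of those members (circles), in siCTGF cells (left) and siControl cells (right). The members lie right of EIF4A1, RCC1, RPL27A and RPS2 in both backgrounds, while those of TAF1D and SNHG17 lie on both sides of the host or left of it.

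The kahweol difference was larger in siCTGF cells for 63 of the 83 members (50.7% of all genes). Across the 83 members the log2 fold changes of the 2 kahweol pairs, which share no library, had a Pearson's r of 0.46 and a Spearman's rho of 0.45, as a description over RNAs counted in the same libraries. The difference between the backgrounds has no replicate and was not tested. The mitochondrial rRNA share was also farther apart there, 6.01% against 3.11% in siCTGF cells and 4.33% against 3.94% in siControl cells, and its part in the result was not tested.

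The siRNA against CTGF left the members' levels close together in untreated cells. The members held 0.0349% of counts in untreated siCTGF cells and 0.0372% in untreated siControl cells, a ratio of 0.940 (0.914 to 0.967), and without SCARNA2 the ratio was 1.03 (0.998 to 1.07). The median log2 fold change was 0.02, with 18 members over a fold of 1.3 (background 9.63%) and 10 under 0.7 (background 8.99%), mostly at low counts. Among the 40 members with a mean of at least 50 counts, 3 passed 1.3 (5.93%) and 1 was under 0.7 (4.71%). Under kahweol the share was 0.0603% in siCTGF cells and 0.0485% in siControl cells, a ratio of 1.24 (1.21 to 1.27), with a median of 0.36, 39 members over 1.3 (background 14.7%) and 2 under 0.7 (background 7.83%).

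No member was called for siCTGF over the 4 libraries. In edgeR's quasi-likelihood test the lowest Benjamini-Hochberg adjusted p was 0.472, for SNORA73B, the single member higher at an unadjusted p under 0.05 (5.13% of all genes; 0 were lower, 4.78%), and DESeq2 and limma-voom called 0 as well. The backgrounds were 0.0663% higher and 0.0602% lower, so the test called almost no gene for this factor. SNORA73B had 13.2 CPM in siCTGF cells against 11.0 CPM in siControl cells under kahweol and 7.67 against 5.25 CPM without it (fitted 0.41, SE 0.16). Both siCTGF libraries lay above both siControl libraries for 6 members (7.99% of all genes), SNORA18, SNORA32, SNORA50C, SNORA58B, SNORA72 and SCARNA17, and below them for 0 (7.86%). A fold of 1.3 was passed in both siCTGF pairs by 8 members (3.25%), and 1, SNORA13, was under 0.7 in both (2.24%). SNORA67 was the single one of the 8 with at least 50 counts on average (1.7% of such genes), with 0.52 under kahweol and 0.47 in untreated cells.

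The RNAs that code for the core proteins of the H/ACA particle did not share the members' shift. None of the 4 core genes was called in either direction for kahweol (edgeR's quasi-likelihood test, backgrounds as above), and their medians were -0.17 in siCTGF cells and 0.09 in siControl cells. DKC1 had 117 against 116 CPM in siCTGF cells and 132 against 107 CPM in siControl cells, and GAR1, which completes the mature particle, 3.18 against 4.69 CPM and 4.08 against 3.86 CPM. Of 8 assembly factors 4 rose and 3 fell. Those that rose were NAF1 and SHQ1, which bind the particle before it matures, with fitted log2 fold changes of 0.59 and 0.64, RPAP3 (0.85) and NOLC1 (0.40). NOLC1 had 247 against 230 CPM in siCTGF cells and 194 against 119 CPM in siControl cells, so its difference lay mostly in siControl cells. Those that fell were the ATPases RUVBL1 (-0.43) and RUVBL2 (-0.78) and PIH1D1 (-0.65).

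Genes of the Cajal body and of RNA 3′ ends held calls in both directions. Over all genes 22.9% rose and 23.6% fell. Of 18 telomerase and Cajal body genes 8 rose (44.4%) and 2 fell (11.1%), with medians of 0.25 and 0.30. USPL1, a Cajal body protein gene, had 55.8 against 19.8 CPM in siCTGF cells and 53.9 against 16.7 CPM in siControl cells (fitted 1.59), and COIL, the gene of the marker protein coilin, a fitted value of 0.36. TERC, the telomerase RNA, which is itself an H/ACA RNA of the Cajal body outside the rule, had 63.8 against 43.1 CPM and 46.8 against 53.5 CPM, so its direction differed between backgrounds. Of 12 genes of 3′ end processing and decay 6 rose (50%) and 1 fell (8.33%), with DBR1, the lariat debranching enzyme that frees intronic snoRNAs, at 0.72 and EXOSC10, the nuclear exosome nuclease, at -0.31. Of the 12 stand-alone pseudouridine synthases, which need no guide RNA, 1 rose, PUS3 (0.97), and 7 fell (58.3%), with PUS7 at -0.41 and RPUSD3 at -0.81. None of the genes of these lists was called for siCTGF.

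The C/D snoRNAs, the class nearest to the members, had almost the same medians. The 107 SNORD genes had 0.97 in siCTGF cells and 0.60 in siControl cells, with 19 called higher (17.8%, against 22.9% of all genes) and 0 lower by edgeR's quasi-likelihood test. These values do not set the H/ACA and Cajal body RNAs apart from them. The 15 other short RNAs of RNA polymerases II and III that were kept and counted in no list above had medians of 0.75 and 0.83, with 7 higher and 0 lower. RMRP, the RNA of RNase MRP, had 4782 against 3153 CPM in siCTGF cells and 3995 against 2618 CPM in siControl cells, and RPPH1, the RNA of RNase P, 2745 against 1786 CPM and 2672 against 1205 CPM.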

How the data were processed

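Total RNA of 4 cultures of MDA-MB-231 cells, 1 per condition, was sequenced after rRNA depletion. The submitters' processing notes list FastQC 0.11.7 and Trimmomatic 0.38 for the reads, HISAT2 2.1.0 and Bowtie2 2.3.4.1 for alignment, StringTie 2.1.3b for assembly, and GRCh37.p13 as genome. The counting step, its strand setting and any filter are not given in the sources used here, so reads of a member and of unspliced host RNA or an antisense gene may not have been kept apart. The estimated counts per gene, as deposited by the authors, are whole numbers without normalization. The deposited FPKM and TPM values, made by the authors from the same reads and scaled by length and depth, entered as alternatives, and TPM also for levels between genes. The deposited coverage signal was used only to check the counts: in members it amounted to a median of about 100 bases per count (lowest median 100.4, highest 100.6), so a count is a read and not a fragment.

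Counts were scaled by TMM in edgeR 4.0.16 (R 4.3.3). The kahweol and siCTGF effects were fitted together over all 4 libraries with edgeR's quasi-likelihood test (additive design, 1 residual degree of freedom, interaction taken as noise) on the 16599 genes whose counts averaged 10 or more, and p-values were adjusted by Benjamini-Hochberg over all of them, with a threshold of 0.05. Because the libraries are 1 per condition, these p-values treat the other factor's 2 levels as repeats. The exact permutation test of 2 against 2 libraries cannot go below p = 0.333. Log2 fold changes of single pairs used a prior count of 2, and fold thresholds of 1.3 and 0.7 followed the study's methods. Intervals are exact Clopper-Pearson intervals at 95%, taking 2 reads as 1 fragment. The scripts were tested on simulated counts.

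A host is a gene of the table that contains a member on the same strand, the one with the most counts where there were several. Sequences were read from GENCODE 29 transcripts by Entrez gene ID, or by symbol where the ID gave none (SNORA58B, SNORA74D and SNORA79B). The text names members that were called, the 10 of highest mean count, the 5 leading members of each effect and direction, scaRNAs with at least 100 counts on average and those next to the count limit. Members of shared hosts and a few others were named after their values were seen. The members and the gene lists were chosen with earlier results of these data known. The labels and the study's methods name different RNA extraction kits.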

Additional observations from a re-analysis of the deposited data

Results flagged for a closer look

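For 3 members the siCTGF fold lay under 0.7 in untreated cells and over 1.3 under kahweol, so the 2 pairs went opposite ways, and the difference between them was not tested. SNORA71B, within SNHG17, had a log2 fold change of 0.48 under kahweol (28 counts in siCTGF cells, 19 in siControl cells) and -0.72 in untreated cells (6 and 13 counts). SNORA53, within SLC25A3, had 0.65 under kahweol (30 and 18 counts) and -0.81 in untreated cells (5 and 12 counts). SNORA66, within RPL5, had 0.73 under kahweol (25 and 14 counts) and -1.22 in untreated cells (4 and 14 counts). All 3 are among the 7 members that averaged under 10 counts in the untreated libraries. The kahweol libraries carried them over the count limit, so these values are given as a description. All 3 rest on at most 30 counts per library, and their counting intervals included 0 in both pairs. Under kahweol these ran from -0.83 to 1.78 for SNORA71B, -0.59 to 2.07 for SNORA53 and -0.72 to 2.32 for SNORA66. SNORA71B shares 121 of 134 aligned bases with SNORA71D (90.3%), so the split of reads between them is uncertain. The share of all genes that meet the same rule was not taken.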

How the results depend on the processing

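No paired analysis was possible because the labels carry no replicate numbers and each condition has 1 library. Without the mitochondrial rRNA the members' share of counts was 0.0641% in siCTGF cells with kahweol, 0.0361% without, 0.0507% in siControl cells with kahweol and 0.0387% without. In the same order it was 0.0682%, 0.0378%, 0.0537% and 0.0404% of protein-coding counts, 0.0569%, 0.0333%, 0.0459% and 0.0355% for members with at least 50 counts on average, and 0.0246%, 0.0149%, 0.0201% and 0.0146% without the 3 most abundant members. The kahweol share was the higher in every case. The median log2 fold change with kahweol in siCTGF cells was 0.86 with total-count scaling, 0.70 with log2(TPM + 1), 0.80 with log2(TPM + 0.1), 0.72 with log2(FPKM + 1) and 0.79 for members with at least 200 counts. In siControl cells it was 0.48, 0.39, 0.41 and 0.47 for the first 4 of these and 0.44 for SCARNA alone. For siCTGF under kahweol it was 0.24 with at least 200 counts. Beside the 22 members called higher for kahweol, DESeq2 called 14 (10 members had no adjusted p), total-count scaling 18 and all genes with a count 19. DESeq2 size factors called 24, and limma-voom and no term for the other factor 29 each. Over all 16599 genes DESeq2 called 3306 higher, DESeq2 size factors 3932, limma-voom 3960 and no term for the other factor 3366. With all genes with a count it was 3367 of 24576. Total-count scaling also turned the calls over all genes to 2880 higher and 5162 lower, against 3805 and 3922. The fitted kahweol median of 0.87 was 0.73 with total-count scaling, 0.73 with at least 50 counts and between 0.64 and 1.08 with each library left out in turn. The fitted siCTGF median of 0.19 then ran between 0.029 and 0.37. The fitted kahweol value of SCARNA9, 0.55, then ran between -0.041 and 1.14, negative without either siCTGF library, which leaves the siControl pair. The cause of these shifts was not tested. Of the 83 members, 43 had under 50 counts on average, and 2 of these were called. The part of depth in this was not tested.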
